A study of Mus musculus with 2 samples.

Results

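The genes described here are 8 long noncoding RNAs (lncRNAs) that carry small nucleolar RNAs (snoRNAs) in their introns, Gas5, Snhg1, Snhg3, Snhg5, Snhg6, Snhg7, Snhg8 and Snhg12, and a pair of abundant nuclear lncRNAs, Malat1 and Neat1. They were chosen by name for their type of RNA, and all 10 were found, each in 1 row, among 22886 genes. RNA was sequenced from cells that the labels call aerobic tumor cells, sorted from Lewis lung carcinoma (LLC), a mouse lung tumor line that had been grown subcutaneously. The host mice were wild-type C57BL/6 animals, and 1 library came from vehicle-injected and 1 from clodronate-injected mice. Clodronate is given in liposomes to remove phagocytes, chiefly macrophages. The labels give neither the age, number or sex of the mice nor the dose or time of injection, and their growth protocol names the blood progenitor line EML, which conflicts with the other labels. The libraries are called here the vehicle and the clodronate library after the labels.

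A snoRNA host gene makes a transcript whose introns release snoRNAs after splicing. C/D box snoRNAs guide the methylation of ribosomal RNA, and H/ACA box snoRNAs guide its pseudouridylation, whereas the spliced host RNA of several of these genes reaches the cytoplasm and is removed by nonsense-mediated decay, which is coupled to translation. Many such hosts begin, like the mRNAs of ribosomal proteins, with a run of pyrimidines at the cap (a 5′ terminal oligopyrimidine tract). Malat1 gathers in nuclear speckles, bodies rich in splicing factors, and Neat1 is the RNA scaffold of paraspeckles.

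The start of the hosts was read from the RefSeq promoter table of GRCm38.p6, because the pyrimidine run is the feature that links them to the ribosomal protein genes. A tract was counted when a C followed by at least 4 letters that were each C or T began within 5 bases of the annotated start. Such a tract was found in 18.3% of 32851 promoters and in 43.3% of 67 promoters of ribosomal protein genes. Of the 7 hosts with an entry, 5 held a tract, and Snhg1, Snhg5 and Malat1 had none under this rule. The rule searches close to the annotated start only, and it also left many promoters of ribosomal protein genes without a tract. A missing match therefore does not show that a gene lacks a run of pyrimidines at its cap. The windows below reach 30 bases to either side of the start, on the strand of the gene, with the tract in capitals. They lie at chr1:161035136-161035195 (+) for the second annotated start of Gas5, chr4:132353657-132353716 (-) for Snhg3, chr2:26640215-26640274 (-) for Snhg7, chr3:123508307-123508366 (-) for Snhg8 and chr4:132308648-132308707 (+) for Snhg12. A match describes these letters only, and the first annotated start of Gas5 held none. The tract of Snhg3 began at base 3 from the annotated start, not at the first base. The shares above count promoters, whereas the hosts are counted as genes with a tract at any annotated start. Counted by start, 5 of the 9 annotated starts of the hosts and Malat1 held a tract.
Gas5: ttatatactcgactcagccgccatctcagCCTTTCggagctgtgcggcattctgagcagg
Snhg3: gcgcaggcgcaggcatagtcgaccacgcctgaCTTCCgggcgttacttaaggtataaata
Snhg7: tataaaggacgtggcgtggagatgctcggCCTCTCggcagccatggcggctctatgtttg
Snhg8: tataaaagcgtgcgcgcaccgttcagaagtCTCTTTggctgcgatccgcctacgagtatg
Snhg12: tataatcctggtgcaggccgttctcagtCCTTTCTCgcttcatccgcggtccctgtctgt

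Of the snoRNAs that the hosts carry, 4 are shown because they stand for both classes and for the different values that the files list for them. Sequences and positions are those of GENCODE M21 on GRCm38. In the C/D box snoRNAs the capitals mark the C box TGATGA and the D box CTGA, and in the H/ACA snoRNAs the ACA close to the 3′ end. Both boxes were found in 75.5% of 98 C/D snoRNA transcripts, and the ACA within the last 8 bases in 95.2% of 42 H/ACA transcripts. Snord47 lies in Gas5 at chr1:161038082-161038158 (+), Snord22 in Snhg1 at chr19:8725866-8725991 (+), Snora17 in Snhg7 at chr2:26639190-26639321 (-) and Snora16a in Snhg12 at chr4:132309465-132309600 (+). In Snord22 only the D box was found in these letters.
Snord47: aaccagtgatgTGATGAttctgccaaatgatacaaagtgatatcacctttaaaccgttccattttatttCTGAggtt
Snord22: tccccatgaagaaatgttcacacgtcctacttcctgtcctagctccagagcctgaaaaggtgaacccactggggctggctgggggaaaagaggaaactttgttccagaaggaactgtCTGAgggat
Snora17: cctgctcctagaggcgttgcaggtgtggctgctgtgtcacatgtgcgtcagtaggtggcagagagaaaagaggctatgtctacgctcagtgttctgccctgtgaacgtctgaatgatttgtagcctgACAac
Snora16a: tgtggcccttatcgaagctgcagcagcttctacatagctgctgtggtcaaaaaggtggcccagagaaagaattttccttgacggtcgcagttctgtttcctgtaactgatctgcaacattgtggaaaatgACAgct

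Levels are RPKM, reads scaled to transcript length and library size, as the authors deposited them. Log2 ratios compare clodronate with vehicle after 1 RPKM is added to both values, and so understate differences of low genes. A fold is the plain ratio of both RPKM values. The genes kept had a mean RPKM of 1 or more, 10982 in all, and all 10 genes described here passed. With 1 library per condition no difference has a replicate check and no test of the conditions was possible. The files give no read totals. From the steps between low RPKM values the vehicle library was estimated to hold about 13740000 and the clodronate library about 11200000 counted fragments, and these give 95% intervals that cover counting error only. In bulk RNA fewer cells of a type and less RNA per cell cannot be told apart.

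Macrophage markers stood far above epithelial markers in both libraries, so the marker genes did not single out carcinoma cells. The 7 macrophage markers found, none of them at 0, summed to 17250 RPKM with vehicle and 18687 RPKM with clodronate. Lyz2, at 10534 and 11189 RPKM, made up most of both sums. Of the 7 macrophage markers 6 were higher with clodronate and 1 was lower, and their median log2 ratio was 0.087. The log2 ratios of the 6 ran from 0.0054 for C1qb to 0.73 for Mrc1. The lower marker was Emr1, with 357 and 261 RPKM and a log2 ratio of -0.45. The 5 epithelial markers summed to 12.8 and 11.0 RPKM, with Epcam and Krt19 at 0 in both. The 5 fibroblast markers, none at 0, summed to 145 and 71.1 RPKM, with 4 lower in the clodronate library. The 6 proliferation genes, none at 0, summed to 218 and 286 RPKM, with 5 higher and a median log2 ratio of 1.14. Pcna, at 176 and 167 RPKM, made up most of these sums. The part of the last 2 lists in the values below was not tested.

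Malat1 and Neat1 stood above the hosts in both libraries, and the hosts spanned a wide range. In the vehicle library the order from high to low was Malat1, Neat1, Snhg1, Snhg12, Snhg3, Gas5, Snhg6, Snhg5, Snhg8 and Snhg7. Snhg1, at 63.6 RPKM with a counting interval of 57.1 to 70.5, and Snhg12, at 60.5 RPKM with an interval of 54.2 to 67.3, did not differ beyond counting error. Nor did Snhg3, at 45.9 RPKM with an interval of 38.8 to 53.8, and Gas5, at 39.7 RPKM with an interval of 37.5 to 41.9. Snhg5 and Snhg8, lower in the order, overlapped as well. In the clodronate library Snhg3 stood below Gas5 and Snhg6, and Snhg8 stood above Snhg5. There the counting interval of Snhg3, 11.1 to 20.99 RPKM, overlapped that of Snhg6, 12.4 to 23.8 RPKM, and no longer that of Gas5, 24.5 to 28.5 RPKM. The Gas5 intervals assume a transcript of 2556 nt. At its shortest spliced form, 346 nt, they would rest on about 80 and 43 fragments and be wider. The separation of Snhg3 from Gas5 may therefore depend on this length.

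**Figure D1:**
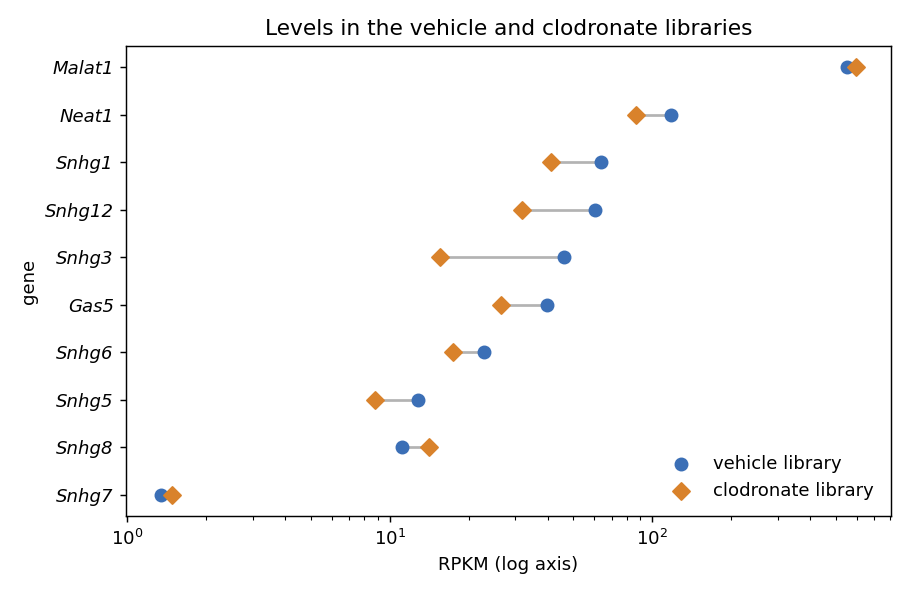
RPKM on a log scale for the 10 genes in the vehicle and the clodronate library, 1 point per library, with no error bar since each condition has 1 library. Malat1 lies near 553 and 595 RPKM and Snhg7 near 1.35 and 1.48 RPKM, while Snhg3 shows the widest gap, from 45.9 to 15.6 RPKM.

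Most snoRNA hosts had lower values in the clodronate library. Of the 8 hosts 6 were lower and 2 higher, and of all 10 genes 7 were lower, beside 48.4% of all genes kept with a log2 ratio below 0. The median log2 ratio was -0.53 over the hosts and -0.46 over all 10 genes, beside 0.019 over all genes kept, whose middle 50% lay between -0.38 and 0.40. The RPKM of the 8 hosts summed to 258 in the vehicle and 157 in the clodronate library. Snhg1, Snhg3 and Snhg12 were at least 1.5-fold lower on the log2(RPKM + 1) scale, as were 16.3% of all genes kept, and none of the 10 was at least 1.5-fold higher, as were 16.6%. Snhg3 alone was at least 2-fold lower, as were 6.77% of all genes kept, and 6.95% were at least 2-fold higher. None passed 3-fold in either direction, beside 2.32% of all genes kept that were lower and 2.86% that were higher. The differences of this group were thus moderate, and 6 of the 10 lay at or below the lower quartile of all genes.

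**Figure D2:**
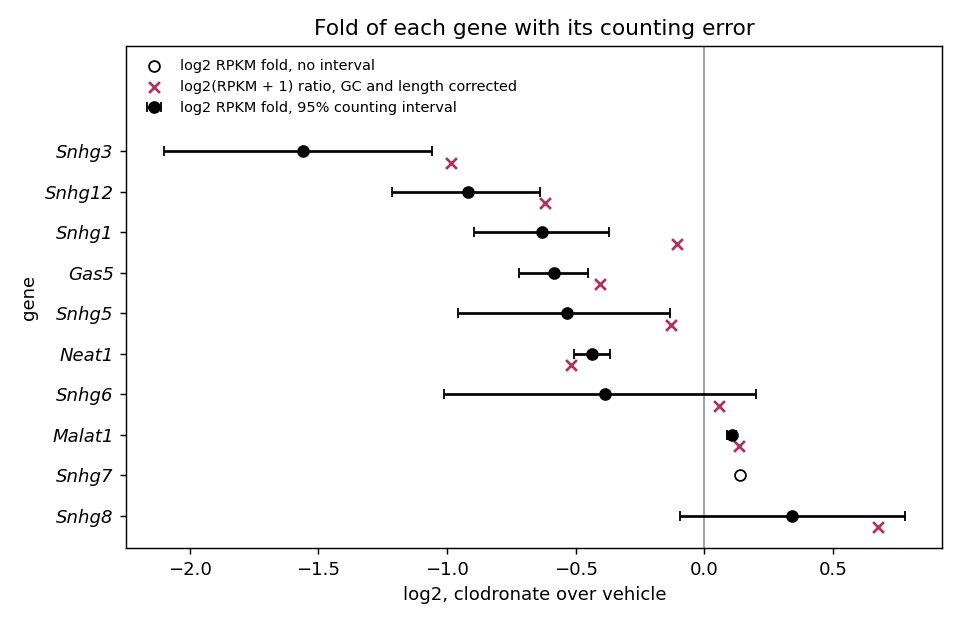
Fold of clodronate over vehicle RPKM on a log scale for the 10 genes, with bars for the 95% interval of counting error only; Snhg7 has no interval because its transcript length was not matched. The intervals of 6 genes lie below 1, that of Malat1 lies just above 1, and those of Snhg6 and Snhg8 hold 1.

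Short transcripts and transcripts of low GC content were lower as a class in the clodronate library, and most hosts are of this kind. In the shortest of 10 bins of transcript length, 69 to 1120 nt, the median log2 ratio over 1085 genes was -0.19, against 0.074 in the longest bin. In the lowest of 10 bins of GC content, 31.2 to 42.1%, it was -0.24, against 0.29 in the highest. Snhg1, Snhg3, Snhg5, Snhg6, Snhg8 and Snhg12 all fell in the shortest bin, and Snhg1 and Snhg3 also in the bin of lowest GC content. Once the median of each GC bin and then of each length bin was subtracted, the median log2 ratio of the 7 hosts with a length was -0.13, with 5 lower and 2 higher. Snhg3 then stood at -0.99, Snhg12 at -0.62 and Gas5 at -0.40, or between -0.35 and -0.14 with the length and GC content of its spliced forms, while Snhg1 stood at -0.10, Snhg5 at -0.13 and Snhg6 at 0.059. The shift of the hosts as a group was therefore smaller within their class of length and GC content, and Snhg3 and Snhg12 remained the lowest of the hosts.

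**Figure D3:**
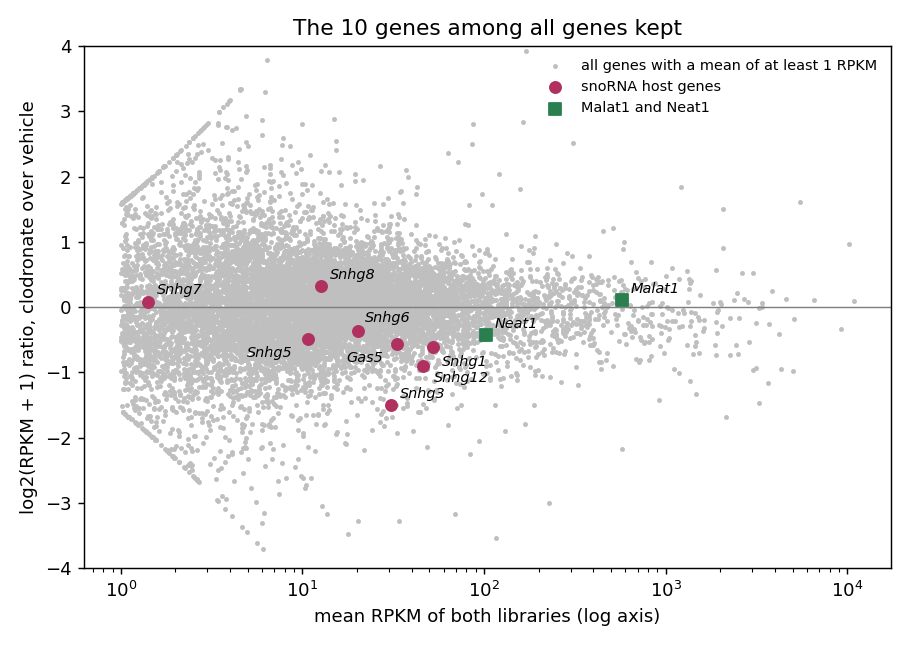
Log2(RPKM + 1) ratio of clodronate over vehicle against the mean level of each gene kept, with the 10 genes named; the vertical range ends at 4 in either direction, which leaves out 52 genes. Snhg3 at -1.50 and Snhg12 at -0.90 lie below most genes of like level, and Malat1 at 0.11 has the highest level of the 10.

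The lowest ratios belonged to a pair of hosts on chromosome 4. Snhg3, known as the host of U17 (Snora73) snoRNAs, which act in the cleavage of ribosomal RNA precursors, lies at 131907848 to 131909601 of mm9. Its level was 45.9 RPKM in the vehicle library and 15.6 RPKM in the clodronate library, a log2 ratio of -1.50. This is 2.95-fold lower with a counting interval of 2.08 to 4.29, resting on about 149 and 41 fragments. Only 2.70% of all genes kept had a ratio as low. Snhg12, which hosts Snora16a, Snora44, Snora61 and Snord99, lies at 131864593 to 131866939. It had 60.5 and 32.0 RPKM, 1.89-fold lower with an interval of 1.55 to 2.32 and a log2 ratio of -0.90, on about 337 and 145 fragments.

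Snhg12 and Snhg3 lie 40.9 kb apart, and both protein-coding genes between them had higher values in the clodronate library. Trnau1ap, a factor for the selenocysteine tRNA, lies 738 bases beyond the end of Snhg12. It had 9.16 and 15.6 RPKM, a log2 ratio of 0.71. Rcc1, the exchange factor of the GTPase Ran, had 4.77 and 9.75 RPKM, a log2 ratio of 0.90. Phactr4, beyond Snhg3, had 18.8 and 22.4 RPKM. Taf12 and Gmeb1, on the far side of Snhg12, had log2 ratios of -0.20 and -0.39. The low values thus alternated with higher ones along this stretch, and did not extend over it as a whole.

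**Figure D4:**
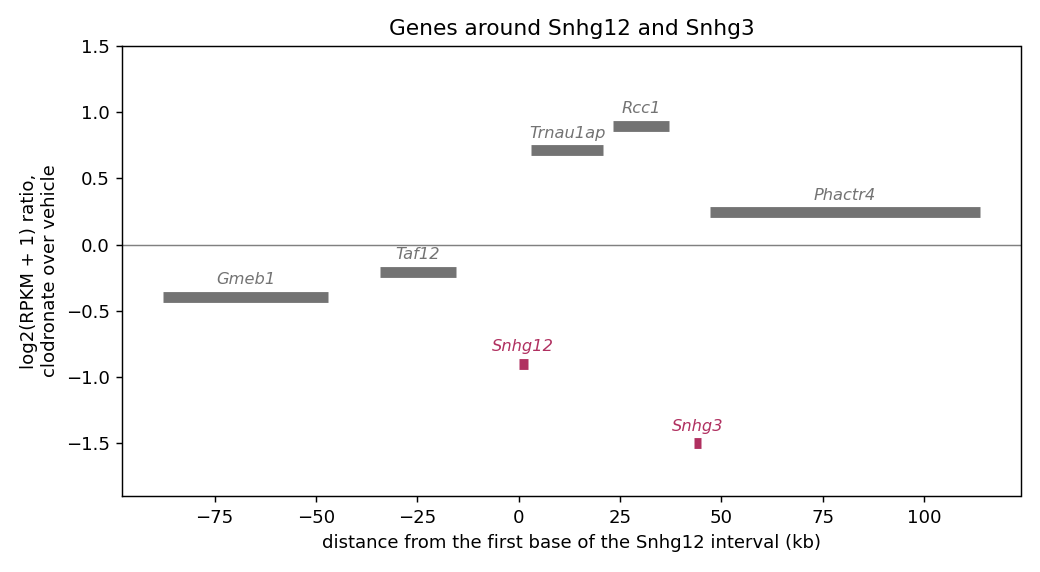
Log2(RPKM + 1) ratio of clodronate over vehicle for 7 genes of chromosome 4 against the distance in kb from the start of Snhg12, each bar as wide as its gene. Snhg12 and Snhg3 lie below 0, and Trnau1ap at 0.71 and Rcc1 at 0.90, which lie between them, above 0.

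Gas5, Snhg1 and Snhg5 were lower by smaller amounts. Gas5, named for its accumulation in growth-arrested cells and host of many C/D box snoRNAs, lies on chromosome 1 at 162965297 to 162968668 of mm9. Its level was 39.7 RPKM in the vehicle library and 26.5 RPKM in the clodronate library, a clodronate over vehicle fold of 0.667 with a counting interval of 0.607 to 0.732 and a log2 ratio of -0.57. Its row carries the RefSeq accessions of 2 transcripts, and the paired GENCODE model of 2556 nt retains introns, whereas the 5 spliced forms of that annotation are 346 to 665 nt long. The level and the counting interval of Gas5 both depend on this length. At 346 nt it would rest on about 80 and 43 fragments with an interval of 0.444 to 0.967, and at 665 nt on about 253 and 138 fragments with an interval of 0.540 to 0.827.

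Snhg1, the host of Snord22 and other C/D box snoRNAs, lies on chromosome 19 at 8797977 to 8800816. It had 63.6 and 41.1 RPKM, 1.55-fold lower with an interval of 1.29 to 1.86 and a log2 ratio of -0.62. Its neighbour Slc3a2, the heavy chain of several amino acid transporters, lies 117 bases away and had 148 and 155 RPKM. Other genes within 50 kb went in both directions. Stx5a had 80.7 and 45.03 RPKM, Nxf1, an export factor of mRNA, had 88.5 and 56.6 RPKM, and Tmem223 had 27.4 and 16.8 RPKM. Their log2 ratios were -0.83, -0.64 and -0.68, about as low as that of Snhg1. Wdr74, with 17.3 and 19.3 RPKM, and Taf6l, with 103 and 131 RPKM, were higher, with log2 ratios of 0.15 and 0.35. Snhg5, the host of U50 (Snord50) snoRNAs, lies on chromosome 9 at 88415891 to 88417735. It had 12.8 and 8.81 RPKM, 1.45-fold lower with an interval of 1.10 to 1.94 and a log2 ratio of -0.49.

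The other 3 hosts did not differ between the libraries beyond counting error, or had no estimate of it. Snhg6, the host of Snord87 on chromosome 1 at 9932106 to 9934199, had 22.8 and 17.4 RPKM, a log2 ratio of -0.37, and the interval of its clodronate over vehicle fold, 0.496 to 1.15, held 1. Snhg8, on chromosome 3 at 123210470 to 123211254, had 11.1 and 14.1 RPKM, a log2 ratio of 0.32, with an interval of 0.936 to 1.72. Its paired transcript is also a form that retains introns. Snhg7, the host of Snora17 and Snora43 on chromosome 2 at 26492696 to 26495764, was close to the filter with 1.35 and 1.48 RPKM. It has no paired transcript, so neither its fragments nor an interval could be estimated. Corrected for GC content and length, Snhg8 stood at 0.68, the highest of the hosts.

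Of the 9 genes with an interval, 6 had it below 1 and 1 above 1. Over the 10838 genes with such an estimate 35.9% had it below 1 and 39.0% above 1. An interval away from 1 was thus common at this depth, and it compares these libraries, not the conditions.

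Malat1 and Neat1, neighbours on chromosome 19 with a gap of 39.6 kb, differed in direction. Malat1, at 5795690 to 5802671, stood at 553 RPKM with vehicle and 595 RPKM with clodronate, rank 174 and 169 of the 10982 genes kept. The fold was 1.08 with an interval of 1.06 to 1.09, on about 51496 and 45204 fragments, and the log2 ratio was 0.11. Its difference was thus small and the most precisely counted of the group. Neat1, at 5842302 to 5845478, had 117 and 86.6 RPKM, 1.35-fold lower with an interval of 1.29 to 1.42, and a log2 ratio of -0.43. The row spans the short form of Neat1, whose paired transcript has 3004 nt, whereas the longest annotated transcript has 20771 nt, so the 3′ part of the long form, which builds paraspeckles, was not measured by it. The ratio of Malat1 to Neat1 RPKM was 4.71 in the vehicle and 6.87 in the clodronate library, and that of Malat1 to the sum of the 8 hosts was 2.14 and 3.79.

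Of genes within 50 kb of any of the 10 and not among them, 24 were kept, of which 12 were lower and 12 higher, with a median log2 ratio of -0.015. Whether the libraries were read by strand is not given in the sources used here, so reads of overlapping transcripts on opposite strands may not be separated.

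The files also list snoRNAs as rows of their own, 9 of them inside 5 of the hosts, and in none of the 9 was a value above 0 listed in both libraries. Such values were rare throughout. Of all 115 snoRNA and scaRNA rows, 6 were above 0 in both libraries, 5 only with vehicle and 22 only with clodronate. Snord22, inside Snhg1, had 180 RPKM in the vehicle library and was listed at 0 in the clodronate library. Snora17, inside Snhg7, had 57.9 RPKM and was listed at 0. Inside Snhg12 the order was the opposite, with Snora16a, Snora44 and Snora61 listed at 0 in the vehicle library and at 50.6, 45.4 and 448 RPKM in the clodronate library. Snord47, Snord87, Snora43 and Snord99 were listed at 0 in both. Where a transcript length was matched, these values rest on few fragments, and for Snora61 no estimate was possible. At 136 nt, the length of the Snora16a sequence above, 1 fragment is worth about 8.21 RPKM with vehicle and 10.1 RPKM with clodronate, so that its 50.6 RPKM stand for about 5 fragments and the 180 RPKM of Snord22 for about 17.2. The libraries were made from polyadenylated RNA, and no fold against a value of 0 is given.

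Noncoding snoRNA hosts outside the group were spread more widely. Of 15 listed, 9 were kept, of which 6 were lower and 3 higher, with a median log2 ratio of -0.46. It was -0.23 with the GC and length correction, and likewise without the filter on low values. The median depended on which genes were listed. The list left out 2410006H16Rik, with 168 and 162 RPKM, and 1110038B12Rik, with 91.1 and 102.3 RPKM. Noncoding genes outside the group that share a locus with a snoRNA or scaRNA row, 7 of which were kept, had a median of -0.049. With the GC and length correction the median of this set was 0.20, over 6 genes. Snhg4, with 12.02 and 1.59 RPKM, and Snhg20, with 16.5 and 2.46 RPKM, had a log2 ratio of -2.33 each, past 3-fold. Zfas1, an abundant host of the Snord12 family, had 95.4 and 62.5 RPKM. Snhg17 had 20.5 and 14.6 RPKM. Snhg9 went the other way with 31.1 and 67.8 RPKM, as did Epb41l4aos with 18.9 and 28.1 RPKM.

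Protein-coding genes with snoRNAs in their introns were mostly lower by small amounts. All 33 listed were kept, 27 of them lower and 6 higher, with a median log2 ratio of -0.28, which was -0.11 with the GC and length correction. The 77 genes of cytosolic ribosomal proteins had a median of -0.29, with 64 lower, or -0.098 with that correction. Ribosomal protein genes make up most of the 33 listed hosts, so these medians rest in large part on the same genes. Rpl39 had 5057 and 2249 RPKM and Rpl30 had 874 and 506 RPKM. Eef2, the translocation factor of the ribosome, had 358 and 494 RPKM, and Nop56, a core protein of C/D box particles and a host itself, had 44.6 and 57.8 RPKM.

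Proteins that bind or assemble snoRNAs went in both directions. Of the 16 listed 10 were higher and 6 lower, with a median log2 ratio of 0.32. All 6 of the lower ones were at least 1.5-fold lower, and 2 were at least 1.5-fold higher. These 2 were Dkc1, with 4.91 and 9.23 RPKM, and Gar1, with 3.94 and 9.82 RPKM. Nop58, the partner of Nop56 on C/D box snoRNAs, had 42.7 and 21.8 RPKM, and Nop10, a core protein of H/ACA particles, had 63.9 and 34.9 RPKM. Snu13 had 62.9 and 94.1 RPKM, and Ruvbl2, an ATPase of the assembly complex, had 13.3 and 19.8 RPKM. Znhit6, an assembly factor of C/D box particles, had 4.70 and 0.443 RPKM, a log2 ratio of -1.98.

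**Figure D5:**
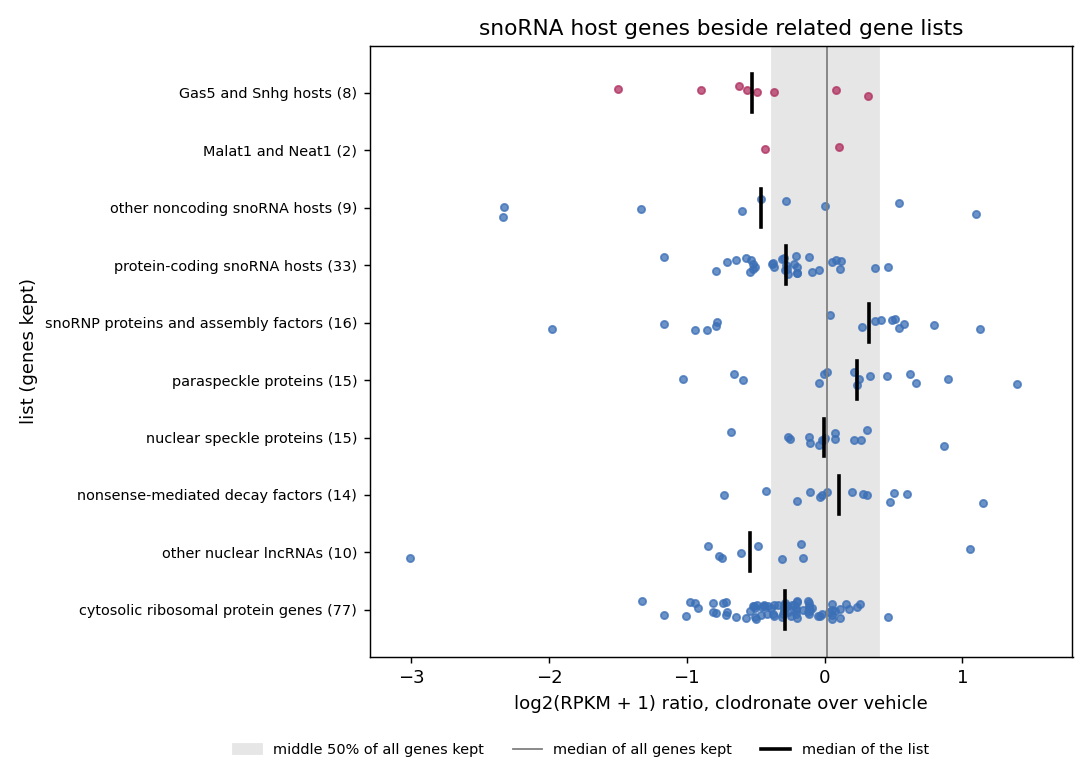
Log2(RPKM + 1) ratio of clodronate over vehicle, 1 point per gene kept, for the hosts, for Malat1 and Neat1 and for 8 related lists, with a bar for the median of each list of more than 2 genes and a grey band for the middle 50% of all genes kept. The median of the hosts lies at -0.53, left of the band, and that of the snoRNP proteins at 0.32, inside it.

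The proteins of the bodies that Neat1 and Malat1 occupy showed no common direction with them. Of 15 paraspeckle proteins 10 were higher and 5 lower, with a median log2 ratio of 0.24. Pspc1, a core paraspeckle protein, had 15.7 and 7.20 RPKM, and Nudt21, a cleavage factor that acts in the choice between the short and the long form of Neat1, had 6.71 and 19.3 RPKM. Tardbp had 26.1 and 16.1 RPKM and Dazap1 had 12.3 and 23.8 RPKM. Of 15 nuclear speckle proteins 8 were lower and 7 higher, with a median of -0.0054. Among them the splicing factor Srsf2 had 307 and 191 RPKM, Srsf5 had 241 and 200.1 RPKM, Srrm1 had 73.1 and 90.9 RPKM and Srsf4 had 14.8 and 27.7 RPKM.

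Factors of nonsense-mediated decay, the pathway that removes several spliced host RNAs, lay close to all genes. Of 14, 8 were higher and 6 lower, with a median log2 ratio of 0.11. Eif4a3, of the exon junction complex, had 94.4 and 81.9 RPKM, and the kinase Smg1 had 28.1 and 27.4 RPKM. Smg5 had 23.1 and 33.1 RPKM and Smg9 had 24.4 and 37.6 RPKM.

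The other lncRNAs listed, chiefly nuclear ones, were mostly lower too. Of 13 listed 10 were kept, 9 of them lower and 1 higher, with a median log2 ratio of -0.54, which was -0.58 with the GC and length correction. The row of Mir22hg, the host of a microRNA, stood at 404 RPKM with vehicle and 49.4 RPKM with clodronate, a log2 ratio of -3.01, and it also carries the accession of the microRNA precursor. Tug1 had 26.5 and 15.2 RPKM and Norad, a cytoplasmic decoy of Pumilio proteins, had 34.7 and 22.5 RPKM. Xist, the RNA of the inactive X chromosome, had 117 and 105 RPKM. The 1 higher gene was Dleu2, with 2.58 and 6.44 RPKM and a log2 ratio of 1.06. Malat1, at 0.11, shared only the sign of Dleu2 and lay near the median of all genes kept, 0.019. Neat1, at -0.43, was lower like the other 9.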

How the data were processed

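The authors deposited RPKM values per gene locus for both libraries, with RefSeq accessions, symbols and locus positions. The submitters' processing notes name mm9, CASAVA 1.8.2, TopHat2 2.0.9, Bowtie 0.12.9, Cufflinks 2.2.1 and Cuffdiff, without their roles. The paper attached to the series describes no tumor experiment. Of 23170 loci, 26 had a number as symbol and were named by accession. Rows of 1 symbol were summed, which left 22886 genes. File starts count from 0, and 1 was added. No count model was used, as RPKM are not counts.

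Depth was estimated from the steps of low RPKM values, multiplied by an effective length under a fragment model with a mean of 200 and an SD of 80, the Cufflinks default. Of 664 low values in the vehicle and 1104 in the clodronate library, 59.6% and 59% lay within 0.03 of a whole number of fragments, where values spread evenly would give 6%. Exact 95% (Clopper-Pearson) intervals of each fold used these fragments. This estimate, the spliced forms of Gas5 and the hosts without Malat1 and Neat1 were chosen after seeing the data. Lengths, GC content and snoRNA sequences came from GENCODE M21 transcripts with the same accession, and 98.7% of genes kept had both.

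The members and all 7 lists were chosen with earlier results of these data known, and the markers likewise. The ribosomal protein genes, the neighbours within 50 kb and their genes were added after values were seen. Named genes are the members, small RNA rows inside them, and in each list the 2 highest and 2 lowest ratios over a mean of 10 RPKM and any gene past 3-fold. Any further gene was picked with its values in view. The alternatives tried were median centring, no filter on low values, a filter at 5 RPKM, a pseudocount of 0.1, upper quartile scaling, the highest row of a symbol, correction for GC content and length in 10 bins each, and thresholds of 2-fold and 1.5-fold. Steps were tested on simulated data. The scripts ran under scipy 1.17.1, pandas 2.3.3, numpy 2.4.6 and Python 3.11.15.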

Additional observations from a re-analysis of the deposited data

How the results depend on the processing

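Under the alternatives run, 6 of the 10 genes had a negative ratio in each (Gas5, Snhg1, Snhg3, Snhg5, Snhg12 and Neat1), 2 a positive one (Snhg8 and Malat1), and Snhg6 ranged from -0.43 to 0.059. Snhg7 was positive in those that could be run for it, which leave out the 5 RPKM filter and the correction for length. Snhg3 ranged from -1.56 to -0.99, Snhg12 from -0.96 to -0.62 and Snhg1 from -0.68 to -0.10. The median of all 10 was -0.13 over the 9 with a length once GC content and length were corrected, against -0.46 otherwise, and that of the hosts was also -0.13. With the spliced forms of Gas5 in that correction, chosen after seeing the data, the median of all 10 was -0.12 or -0.13. No member passed 3-fold, but 1 was lower at 2-fold and 3 at 1.5-fold. Over all genes, 314 were at least 3-fold higher and 255 lower, against 532 and 480 with a pseudocount of 0.1, 127 and 101 when the filter was 5 RPKM, 763 and 744 at 2-fold and 1828 and 1789 at 1.5-fold. The median of the other noncoding hosts was -0.23 with no filter and after the correction, and that of the other nuclear lncRNAs was -0.40 with no filter and -0.68 with the 5 RPKM filter. No paired analysis was possible because vehicle and clodronate have 1 library each. Depth limits Snhg3, Snhg5, Snhg6 and Snhg8 most, each with fewer than 100 estimated fragments in at least 1 library, and Snhg7, at the lowest level, has no estimate. Gas5 would join them at its spliced length of 346 nt, with about 80 and 43 fragments.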

Other observations

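The 2 libraries differed in how many small RNA rows had a value. Of 115 snoRNA and scaRNA rows, 11 were above 0 in the vehicle and 28 in the clodronate library, 6 were above 0 in both and 82 were listed at 0 in both. The clodronate library had more of them although its estimated depth was lower, about 11200000 fragments against 13740000. Of the 115 rows 100 share their locus with another gene, and 106 of the 109 with a paired transcript are shorter than 200 nt. Protein-coding genes that share a locus with such a row, 71 of which were kept, had a median log2 ratio of -0.20, and noncoding genes outside the 10 described, 7 of which were kept, one of -0.049. In the latter, 2410006H16Rik stood at 168 RPKM with vehicle and 162 RPKM with clodronate, and 1110038B12Rik had 91.1 and 102.3 RPKM, so these abundant noncoding genes were at like levels in both libraries.

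Around Gas5, Cenpl, a centromere protein, stood at 9.05 RPKM with vehicle and 2.31 RPKM with clodronate, a log2 ratio of -1.60. Wdr74, which acts in ribosome assembly and whose gene lies 9512 bases from Snhg1, had 17.3 and 19.3 RPKM.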
